A study of Mus musculus with 2 samples.

Results

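The miR-23/27/24 genes form 6 of the 2202 microRNA genes counted in heart tissue. Mir23a, Mir27a and Mir24-2 make up the cluster on chromosome 8, and Mir23b, Mir27b and Mir24-1 make up its paralogous cluster on chromosome 13. The rule that picks them uses gene names in the GENCODE M21 annotation and no measured value, though earlier results of these data were known when they were chosen. All 6 had at least 10 reads in both libraries, the level called detected here, as did 340 of the 2202 genes.

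The heart tissue came from male B6CASTF1/J mice aged 10 days, the first-generation hybrid of a laboratory strain and the wild-derived CAST strain. The labels name no treatment and no altered allele, and the heart was taken as a whole tissue. Total RNA was prepared for short fragments and sequenced as 1 library for each of 2 biological replicates, which form the only group. The labels give the replicates separate sample identifiers and a common donor identifier, and the spread between them may therefore be partly technical.

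MicroRNAs are short RNAs that pair with messenger RNAs, chiefly through the seed at bases 2 to 8, and lower their translation and stability. The miR-23/27/24 genes lie in vertebrates as paralogous clusters that are each transcribed as 1 precursor and then cut into separate hairpins. In the cardiovascular system miR-23 and miR-27 are known for roles in endothelial sprouting, miR-23a for a role in cardiac hypertrophy, miR-27 also for lipid metabolism and adipogenesis, and miR-24 for effects on cell survival and vessel growth.

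The mature sequences below are RefSeq entries on build GRCm38.p6, written 5′ to 3′ with the seed in capitals. They are shown because the 3 families differ in how far the paralogs can be told apart by sequence. The RefSeq entries used here hold no miR-23b-3p, so that form is not printed.
miR-23a-3p: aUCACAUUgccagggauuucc
miR-27a-3p: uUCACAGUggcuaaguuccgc
miR-27b-3p: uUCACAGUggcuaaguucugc
miR-24-3p: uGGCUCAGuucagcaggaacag
miR-24-1-5p: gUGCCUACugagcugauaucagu
miR-24-2-5p: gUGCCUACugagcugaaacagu
miR-23a-5p: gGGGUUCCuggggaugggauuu
miR-23b-5p: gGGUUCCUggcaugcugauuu
The 3p forms of miR-27a and miR-27b share a seed and differ by 1 base, C19U, counted from the 5′ end with the miR-27a base first. The seeds of miR-23a-3p and miR-27a-3p, UCACAUU and UCACAGU, are different, and that of miR-24-3p is GGCUCAG.

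The first 18 bases of miR-23a-3p also occur in the hairpin of Mir23b, and the first 18 bases of miR-27a-3p and of miR-27b-3p occur in the hairpin of the other gene. The whole of miR-24-3p, 22 bases, occurs in both Mir24-1 and Mir24-2 and in no other counted hairpin on its strand. The 5p forms of the miR-24 genes begin with the same 16 bases and then part. Hairpins are shown for this pair, with the longest stretch that both contain, 28 bases, in capitals.
Mir24-1: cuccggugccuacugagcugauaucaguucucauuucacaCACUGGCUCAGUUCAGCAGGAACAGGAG
Mir24-2: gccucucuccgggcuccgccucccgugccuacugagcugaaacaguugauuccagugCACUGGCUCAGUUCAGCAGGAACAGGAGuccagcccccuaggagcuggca
The longest stretch shared by the hairpins of Mir23a and Mir23b is 20 bases, and that of Mir27a and Mir27b is also 20 bases. Of the 340 detected genes, 80 (23.5%) hold a stretch of at least 20 bases that another counted hairpin holds too.

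The clusters differ in their surroundings. The chromosome 8 cluster spans 404 bases, from 84208518 to 84208921 on the plus strand of mm10, in the order Mir23a, Mir27a and Mir24-2, with 79 and 56 bases between the hairpins. Mir23a (ENSMUSG00000065611.1, 84208518 to 84208592) and Mir27a (ENSMUSG00000065444.1, 84208672 to 84208758) overlap no other annotated gene. Mir24-2 (ENSMUSG00000065541.1, 84208815 to 84208921) overlaps Mir3074-2 on the opposite strand and shares its last 2 bases with the long noncoding RNA Gm26532.

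The chromosome 13 cluster spans 792 bases, from 63300484 to 63301275 on the plus strand, with 154 and 423 bases between the hairpins. All 3 genes lie inside the protein-coding gene 2010111I01Rik on the same strand and inside Fancc on the opposite strand. Mir23b (ENSMUSG00000065599.2, 63300484 to 63300557) is intronic in all 9 transcripts of 2010111I01Rik that cross it. Mir27b (ENSMUSG00000065475.2, 63300712 to 63300784) lies in an exon of 1 of 9 such transcripts. Mir24-1 (ENSMUSG00000105904.1, 63301208 to 63301275) touches an exon of 4 of 11, and Mir3074-1 covers it on the opposite strand.

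The gene counts summed to 3748432 in replicate 1 and 6305782 in replicate 2, and levels are given as CPM, or counts per 1000000 of these gene counts. Reads with several mapping positions, 36.8% and 48.1% of all reads, are listed apart from the genes, and the shares and levels here refer to assigned reads only. The heart label was set against microRNAs known from striated heart muscle. All 7 of that list had counts, summing to 0.832% and 1.25% of the assigned reads, led by Mir499 with 3678 and 7542 CPM, Mir208a with 3795 and 1362 CPM and Mir208b with 794 and 3444 CPM. The others of that list were Mir1a-2 (43.2 and 99.6 CPM), Mir133a-1 (2.67 and 4.28 CPM), Mir1a-1 (3.47 and 3.01 CPM) and Mir133a-2 (0.534 and 0.634 CPM). Any of their reads with several mapping positions are missing from these values and from the sum, and their number was not tested. Low values here are therefore no measure of how scarce these microRNAs were. Of the 6 neural marker genes 4 were at 0, and the list held 2 counts in each library. Reads with several mapping positions are missing here too, so these low counts do not show that the neural microRNAs were absent. Mir378a was the most abundant gene, with 138757 and 137851 CPM.

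The miR-23 genes supplied nearly all assigned reads of both clusters, and the miR-24 genes supplied the fewest. The 6 genes together took 8.07% of the assigned reads in replicate 1 (exact Clopper-Pearson 95% interval 8.05% to 8.10%), and 9.71% (9.69% to 9.74%) in replicate 2, a mean of 8.89% ± 1.16 (SD, n = 2). Within that sum the miR-23 pair took 95.3% and 95.5%, the miR-27 pair 4.35% and 4.27%, and the miR-24 pair 0.317% and 0.196%. These shares differed between the libraries by far less than they differed between the families. Intervals cover counting error only, since amplified reads are not independent molecules. The mature forms are 21 to 23 bases long, and CPM values were compared between genes without a correction for length.

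Mir23b, the first hairpin of the chromosome 13 cluster, was the most abundant of the 6. Its levels were 44229 and 51212 CPM in replicates 1 and 2, a mean of 47721 ± 4937 (SD, n = 2), and ranked sixth among all genes in each library. Mir23a, the first hairpin of the chromosome 8 cluster, had 32734 and 41593 CPM, a mean of 37164 ± 6264. The lower value of Mir23b lay above the higher value of Mir23a, so the libraries of these genes did not overlap. Both miR-23 genes were among the 10 most abundant genes of each library.

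Mir27b was the third of the 6 by level and Mir27a the fourth. Mir27b stood at 2795 and 3478 CPM (mean 3137 ± 483). Mir27a had 715 and 672 CPM (mean 694 ± 30.6). Both values of Mir27b lay above both values of Mir27a. Mir27b ranked at 41 and 35 among all genes and Mir27a at 85 and 84.

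The miR-24 genes had the lowest assigned counts and could not be put in order. Mir24-2 had 359 reads in replicate 1 and 980 in replicate 2, or 95.8 and 155 CPM (mean 126 ± 42.2). Mir24-1 had 601 and 223 reads, or 160 and 35.4 CPM (mean 97.8 ± 88.4). Mir24-1 was the higher of the pair in replicate 1 and Mir24-2 in replicate 2, and their ranges overlapped. The order of the 6 genes was therefore Mir23b, Mir23a, Mir27b and Mir27a, each apart from the next in both libraries, followed by the miR-24 pair. A read of miR-24-3p alone fits both genes equally, and reads with several mapping positions are listed apart from the genes. These counts therefore do not measure all miR-24 reads, and how many of the reads with several mapping positions were miR-24 was not tested.

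**Figure D1:**
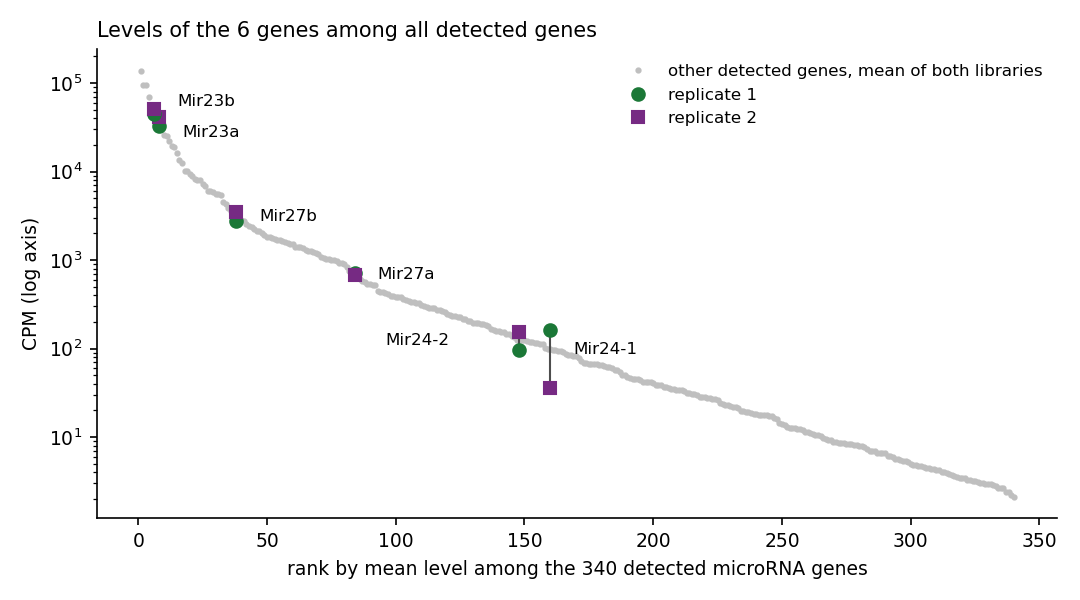
Level of each of the 6 genes in CPM (log axis) in replicate 1 (circles) and replicate 2 (squares) against its rank by mean level among the 340 detected genes, with the other genes as grey points. The miR-23 genes sit at ranks 6 and 8, Mir27b at 38 and Mir27a at 84, and the miR-24 genes lie at 148 and 160 with their libraries farthest apart.

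Assigned counts were lower with each step along both clusters in the direction of transcription. The last step, to miR-24, rests on counts that leave out reads with several mapping positions, such as reads that fit both miR-24 genes. On chromosome 8, Mir23a had 45.8 times the counts of Mir27a in replicate 1 and 61.9 times in replicate 2, a log2 ratio of 5.73 ± 0.31 (SD, n = 2). Mir27a in turn had 7.47 and 4.32 times the counts of Mir24-2. On chromosome 13, Mir23b had 15.8 and 14.7 times the counts of Mir27b, a log2 ratio of 3.93 ± 0.07. Mir27b had 17.4 and 98.4 times the counts of Mir24-1. The step from miR-23 to miR-27 was thus larger on chromosome 8 in both libraries, and the ranges of its log2 ratio in the clusters did not overlap.

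**Figure D2:**
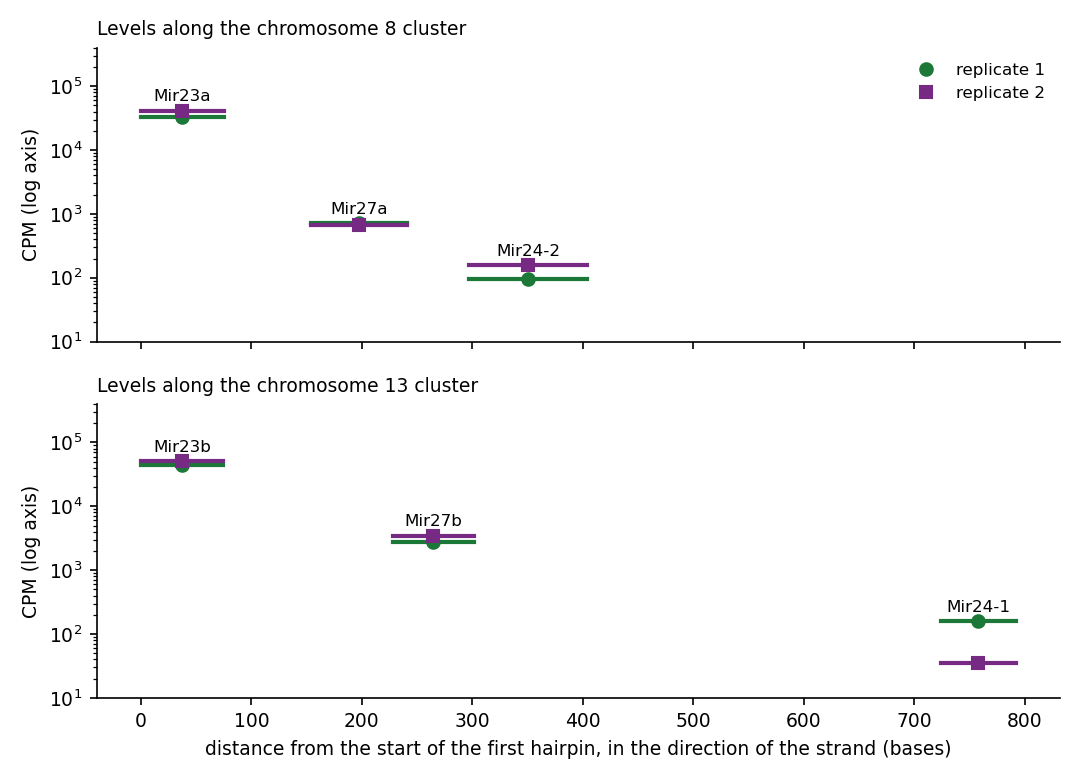
CPM (log axis) of each hairpin against its distance in bases from the start of the first hairpin of its cluster, with the chromosome 8 cluster above and the chromosome 13 cluster below; horizontal lines span the hairpins, circles are replicate 1 and squares replicate 2. Assigned reads descend in both clusters from miR-23 through miR-27 to miR-24, from 32734 and 41593 to 95.8 and 155 CPM on chromosome 8. The miR-24 values leave out reads with several mapping positions.

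The ranges within these clusters were set beside those of all 45 groups of at least 2 detected microRNA genes on 1 strand with at most 10 kb between neighbours. The range is the log2 difference between the highest and the lowest gene, averaged over the libraries. It was 9.30 for the chromosome 13 cluster and 8.24 for the chromosome 8 cluster, the third and the fifth of the 45, whose median was 3.99. Among the 7 groups of exactly 3 detected genes they stood first and second, ahead of the group of Mirlet7d, Mirlet7f-1 and Mirlet7a-1 at 7.42. The lowest gene of each cluster is a miR-24 gene, whose count is the uncertain one. These positions are descriptions of 2 libraries and were not tested.

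Between paralogs, the chromosome 13 copy was the more abundant of the miR-23 and miR-27 pairs, by unequal margins. Mir23b exceeded Mir23a by 1.35-fold in replicate 1 and 1.23-fold in replicate 2. Mir23a therefore took 42.5% of the pair's counts (exact 95% interval 42.4% to 42.7%) and then 44.8% (44.7% to 44.9%). Mir27b exceeded Mir27a by 3.91-fold and 5.18-fold, and Mir27a took 20.4% (19.7% to 21.1%) and 16.2% (15.7% to 16.6%). The log2 ratio of the chromosome 8 to the chromosome 13 gene was -0.37 ± 0.09 for miR-23 and -2.17 ± 0.29 for miR-27 (SD, n = 2), without overlap between the pairs. The difference between the pairs rests on the same counts as the unequal steps from miR-23 to miR-27 above. It restates that result and is not a separate one.

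The miR-24 pair had no stable proportion. Mir24-2 took 37.4% of the pair's 960 counts in replicate 1, with an exact 95% interval of 34.3% to 40.5%. In replicate 2 it took 81.5% of 1203 counts, with an interval of 79.1% to 83.6%. The log2 ratio of Mir24-2 to Mir24-1 was -0.74 in replicate 1 and 2.14 in replicate 2. Its mean of 0.70 ± 2.04 describes neither library. The sum of the pair was steadier than its parts, at 0.0256% and 0.0191% of all assigned reads. Over both clusters, chromosome 8 supplied 41.6% and 43.7% of the reads, a mean of 42.6% ± 1.49.

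**Figure D3:**
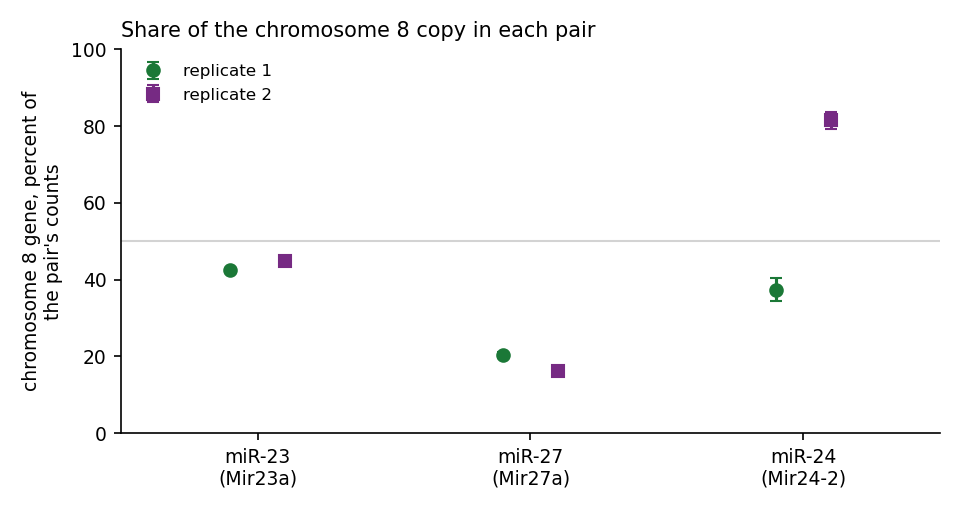
Share of the chromosome 8 gene in the summed counts of each paralog pair, in percent, for replicate 1 (circles) and replicate 2 (squares), with exact 95% intervals that cover counting error only and a grey line at equal counts. The miR-23 and miR-27 shares stay below that line in both libraries, at 42.5% and 44.8% and at 20.4% and 16.2%, whereas miR-24 moves from 37.4% to 81.5%.

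The shift of the miR-24 pair was set beside those of other genes that yield an identical mature form. RefSeq mature forms could be matched to 1022 counted genes, and 94 of these hold a form that is identical to one of another counted gene. The entries used are not complete, and genes that share only a missing form are not among the 94. Those 94 genes took 1.52% and 1.63% of the assigned reads, against 76.6% and 75.7% for the 928 genes with no such form among the entries. The remaining assigned reads fell in counted genes that were matched to no form. Reads with several mapping positions, such as those that fit 2 genes equally, are missing from these shares. The low share of the 94 is therefore no measure of how scarce their microRNAs were. Among the 94, 40 (42.6%) were detected, and among the 928, 268 (28.9%).

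Among these entries there were 39 sets of exactly 2 such genes, some of them sharing a gene, and in 17 both genes were detected. The log2 ratio within the pair changed between the libraries by a median of 0.36 over the 17, without regard to sign. The miR-24 pair changed by 2.88, the largest of the 17, and the pair of Mir181a-1 and Mir181a-2 followed with 1.88. In the 3 pairs with the most counts the share of the first gene moved little. Mirlet7f-1 took 3.22% and 3.02% beside Mirlet7f-2, Mir16-1 took 87.4% and 84.3% beside Mir16-2, and Mir92-1 took 97.3% and 98.0% beside Mir92-2. No test was made of the place of the miR-24 pair in this order.

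**Figure D4:**
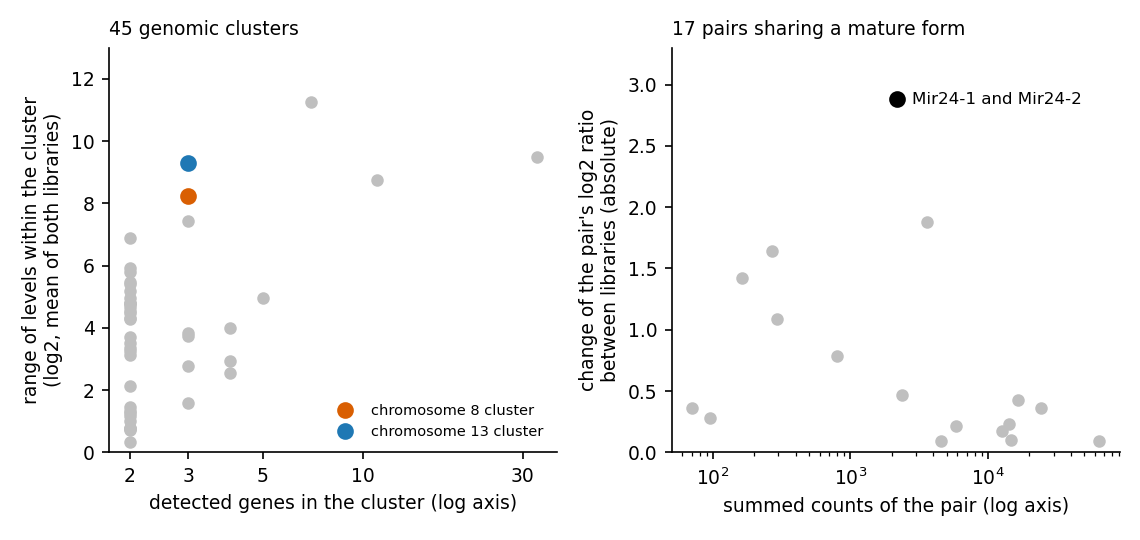
Left, the range of levels within each of 45 genomic clusters (log2, mean of both libraries) against the number of its detected genes (log axis), with the chromosome 8 cluster in orange at 8.24 and the chromosome 13 cluster in blue at 9.30. Right, the absolute change of the log2 ratio within each of 17 pairs that share a mature form against the pair's summed counts (log axis), with the miR-24 pair in black at 2.88.

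The libraries were then compared gene by gene. The log2 ratio of replicate 2 over replicate 1 was taken after TMM scaling, which shifts every ratio by 0.14 from that of the CPM values. A two-sided exact binomial test, with p-values adjusted by Benjamini-Hochberg over all 340 detected genes and a threshold of 0.05, asked whether counting error alone could give the difference. It compares 2 libraries and not conditions. In whole tissue, fewer cells of a type and less RNA per cell cannot be told apart. Of the 6 genes 5 were called, against 72.1% of all detected genes, so a call by this test is the usual outcome. Higher calls in replicate 2 were 4 of the 6 (34.1% of all detected genes) and lower calls 1 of the 6 (37.9%).

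Mir23a was higher in replicate 2 by a log2 ratio of 0.49 (exact 95% interval 0.48 to 0.50) and Mir23b by 0.35 (0.35 to 0.36). Mir27b was higher by 0.46 (0.42 to 0.49). Mir27a did not pass the test, with a log2 ratio of 0.05 (-0.02 to 0.12) and an exact binomial adjusted p of 0.182. Its call depended on the scaling, since it was called lower in replicate 2 with total counts (-0.090) and higher with DESeq2 size factors (0.13). These 4 genes all differed by less than the median absolute log2 ratio of the 340 genes, 0.54. Mir27a was therefore the member with the closest levels in the libraries, and 4.41% of the detected genes had a smaller absolute ratio.

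The miR-24 genes differed in opposite directions. Mir24-2 was 1.79-fold higher in replicate 2, a log2 ratio of 0.84 (exact 95% interval 0.66 to 1.02). Mir24-1 was 4.10-fold lower, a log2 ratio of -2.04 (-2.27 to -1.81). It was the only 1 of the 6 to differ by at least 2-fold, as did 20.0% of the detected genes, and 95.9% of them had a smaller absolute ratio. Its exact binomial adjusted p was 8.76e-83, and that of Mir24-2 was 3.26e-22, both of which measure counting error alone. Total counts and DESeq2 size factors move all log2 ratios by 1 constant each. Both constants are smaller than either miR-24 ratio, so the directions could not change there. Over the 6 genes the median log2 ratio was 0.41, beside -0.05 over all detected genes.

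**Figure D5:**
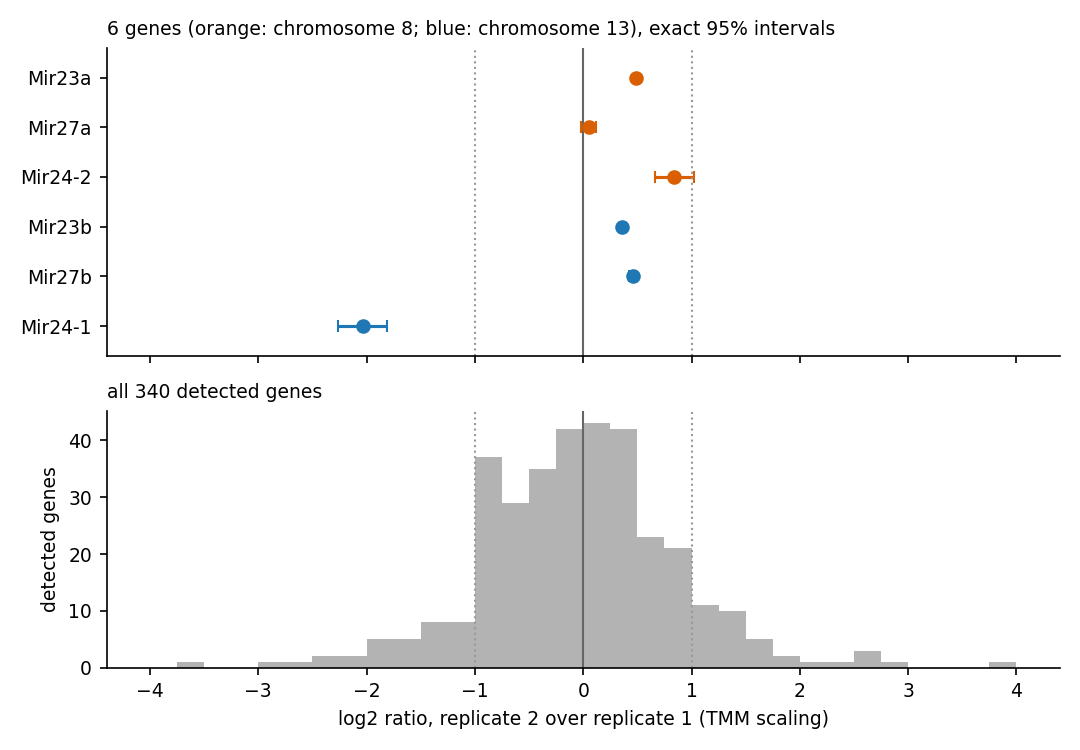
Above, the log2 ratio of replicate 2 over replicate 1 for each of the 6 genes with exact 95% intervals (orange for chromosome 8, blue for chromosome 13), and below, the same ratio for all 340 detected genes as a histogram; dotted lines mark 2-fold. Mir24-1 lies at -2.04 and Mir24-2 at 0.84, and the other 4 genes lie between 0.05 and 0.49.

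Within each cluster the members did not keep the same ratio between libraries. On chromosome 8 the log2 ratios ran from 0.05 for Mir27a to 0.84 for Mir24-2, a spread of 0.79, beside a median spread of 0.70 over the 45 genomic clusters and of 1.01 over the 7 with 3 detected genes. On chromosome 13 they ran from -2.04 for Mir24-1 to 0.46 for Mir27b, a spread of 2.49, the third of the 45. Mir23b and Mir27b, the other two hairpins of that cluster, differed by 0.10.

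The opposite strand bears on the miR-24 genes alone. Mir3074-1, whose hairpin covers Mir24-1 from the other strand, had 93 counts of its own in replicate 1 and 118 in replicate 2. Mir3074-2, opposite Mir24-2, had 1 and 0, and a count of 0 allows up to 3. Scaled to the libraries, Mir3074-1 had 24.8 and 18.7 CPM, and its log2 ratio of -0.27 did not pass the exact binomial test (adjusted p = 0.253). In the column that counts both strands together Mir24-1 and Mir24-2 are listed at 0 in both libraries, whereas Mir23a, Mir23b, Mir27a and Mir27b have the same values there as on their own strand. That column is therefore not a plain sum of the strands, and its 0 for the miR-24 genes does not mean that they had no reads.

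Among all counted genes with a RefSeq mature form, the seed of miR-27a-3p was found in Mir27a and Mir27b and in no further gene. The seed GGCUCAG of miR-24-3p was found in 4 further genes, Mir5124b, Mir6369, Mir6410 and Mir6413. All 4 were at 0 in both libraries, which allows up to 0.800 CPM in replicate 1 and 0.476 CPM in replicate 2. The counts are given for whole hairpins, and the part of the 3p and 5p forms in those of Mir24-1 and Mir24-2 was not analysed here.

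The genes closest to the members in level were found by the Euclidean distance of log2(CPM + 1) over the 2 libraries, which describes likeness in 2 values and nothing more. Mir143, known from smooth muscle, was nearest to Mir23b at a distance of 0.02, with 43579 and 51392 CPM, and nearest to Mir23a at 0.51. Mir99a was second for both, at 0.31 and 0.76. Mir744 (0.22) and Mir379 (0.22) were nearest to Mir27b, and Mir497 (0.17) and Mir425 (0.37) to Mir27a. Mir369 (0.21) and Mir421 (0.23) were nearest to Mir24-2. For Mir24-1 the nearest were Mir182 (0.26), with 134 and 36.2 CPM, and Mir485 (0.77).

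Other microRNAs linked to vessels and to heart growth were read from lists. Of the 10 other angiogenic genes 9 were detected, and 5 were higher in replicate 2, 3 lower and 1 did not pass, with a median log2 ratio of 0.32. Their leading genes were Mir126a, the endothelial microRNA within Egfl7, with 88956 and 100563 CPM (log2 ratio 0.32), and Mir130a with 5371 and 13314 CPM (1.45). All 9 other heart growth and stress genes were detected, with 4 higher, 4 lower and 1 not passing, and a median of -0.23. Their leading genes were Mir22 with 7113 and 4881 CPM (-0.40) and Mir499 (1.18).

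Markers of cell types that the tissue could hold were read the same way. The 4 endothelial genes took 8.97% of the assigned reads in replicate 1 and 10.1% in replicate 2, of which Mir126b had 3 and 1 counts and Mir221 had 744 and 388 CPM. The 2 smooth muscle genes, Mir143 and Mir145a (1211 and 1920 CPM), took 4.48% and 5.33%. Of the endothelial genes 2 were called higher in replicate 2 and 1, Mir221, lower (log2 ratio -0.80). Shares of both lists were higher in replicate 2, as were those of the miR-23 genes. The shares of the heart muscle, leukocyte, epithelial and hepatocyte lists were higher there as well, and that of the erythroid list was lower. The part of any cell type in the difference of the miR-23 genes was not tested. The 3 erythroid genes took 1.02% and 0.885%, led by Mir451a (9591 and 8251 CPM) and Mir144 (316 and 453 CPM). The 5 leukocyte genes took 0.295% and 0.304%, led by Mir155 (1430 and 1191 CPM) and Mir146 (988 and 846 CPM). These leading genes were called lower in replicate 2 and the other 3 of that list higher, with a median log2 ratio of 0.92. The 6 epithelial genes took 0.0476% and 0.0546%, led by Mir200c (403 and 443 CPM) and Mir200b (12.5 and 43.5 CPM), with 3 genes called higher in replicate 2, 1 lower and 2 not passing. Mir122 of hepatocytes had 57.9 and 77.7 CPM.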

How the data were processed

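MicroRNAs of 2 samples of mouse heart, with separate sample identifiers and a common donor identifier, were measured as 1 library each. For every microRNA gene the authors deposited raw counts on mm10 with GENCODE M21, per the text deposited with the tables, with an aligner and a counter not given in the sources used here. The tables have no header, and the meaning of their 3 columns was read from genes that overlap on opposite strands. Counts on the gene's own strand were used. The 4 entries that name no gene stayed out of totals. Hairpins came from GENCODE transcripts and mature forms from RefSeq on GRCm38.p6, where 1036 of 1072 symbols matched. Shares have exact Clopper-Pearson intervals (scipy 1.17.1).

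Detected genes (at least 10 counts in both libraries) were compared with an exact binomial test against TMM-scaled sizes (edgeR 4.0.16), adjusted by Benjamini-Hochberg over all of them, with a prior of 0.5 counts in the log2 ratio. The procedure was tested on simulated data with set differences and counting noise alone. The libraries do not meet that setting, so the simulation does not test the calls made here. A chi-square of 978 for each degree of freedom showed that the tables differ beyond sampling noise. Alternatives were total counts, DESeq2 1.42.0 size factors, other count minimums, another prior, the column for both strands, a total without the most abundant gene and leaving out each library.

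Named genes were the 6 members, genes that overlap them, the 2 nearest in level to each, seed relatives, the 3 largest identical pairs, the most abundant gene, all counted heart muscle genes and the 2 leading genes of each other list. Mir126b, Mir181a-1, Mir181a-2 and a let-7 cluster were chosen after their values were seen. The members and lists were chosen with earlier results of these data known.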

Additional observations from a re-analysis of the deposited data

Results flagged for a closer look

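Reads on the strand opposite Mir24-1 numbered 93 in replicate 1 and 118 in replicate 2, above the 3 counts that a count of 0 allows. They are signal outside the comparison of the 6 genes and are the counts of Mir3074-1 on its own strand. Groups of 2 libraries are too small for the rule that looks for a sample far from the others.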

How the results depend on the processing

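Apart from leaving out a library, which returns the value of the other, 56 values were recomputed under another setting. Of these, 51 kept their direction and call, stayed within the spread of the replicates or, for numbers of genes, stayed close to the main value. The number of the 6 genes called went from 5 to 6 with total counts and with DESeq2 size factors. Other count minimums cannot alter a member's ratio, so agreement of the ratios there was fixed in advance. The prior enters the log2 ratio and not the test, so agreement of the calls under another prior was fixed too. The same holds for the shares within the miR-23 and miR-27 pairs in the column for both strands, where these genes have equal values. The 51 are therefore no measure of how robust the results are. The ratio of Mir27a turned from 0.05 to -0.090 with total counts, and was called higher at 0.13 with DESeq2 size factors. Against total counts, TMM shifts all log2 ratios by 0.14 and DESeq2 size factors by 0.22, and the higher share of all calls is 47.3% with TMM, 39.9% with total counts and 52.3% with DESeq2 size factors. With the column for both strands 3 of the 6 genes were called, since Mir24-1 and Mir24-2 are at 0 there, which leaves no share for that pair. The 6 genes then took 12.2% of the reads of that column, whose gene counts sum to smaller totals, 2756527 in replicate 1 and 4558006 in replicate 2. They took 10.3% of the reads on their own strand when Mir378a was left out of the total. Leaving out each library in turn gave 8.07% to 9.71% for this share, 42.5% to 44.8% for Mir23a in its pair, 16.2% to 20.4% for Mir27a, 37.4% to 81.5% for Mir24-2 and 41.6% to 43.7% for the chromosome 8 cluster. No paired analysis was possible because there is 1 group. The 2 libraries allow no test of a condition, and the miR-24 values rest on 223 to 980 reads. Without a count minimum, 252 of 733 genes were called, against 245 of 340.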
